A study of Caenorhabditis elegans with 2 samples.

Results

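The genes described here build and direct the secretory pathway. They are the 62 protein-coding genes, of 19985 in the WBcel235 annotation of Caenorhabditis elegans, whose names begin with sec-, rab-, arf-, arl- or cogc-, or consist of cop, 1 letter and a hyphen before the number. Binding near their transcript starts was read from ChIP-seq peak lists of late embryos of strain OP117, which carries the integrated transgene wgIs117 with eGFP-tagged PAX-1 in an unc-119(ed3) III background. PAX-1 is a transcription factor with a paired domain, the DNA-binding domain of the Pax family. The labels name eGFP-pax-1 as the target and pax-1 as the antibody. There are 2 biological replicates of whole animals of mixed sex, and they form 1 group. No untagged or untreated group was analysed here, and a control alignment entered the authors' own peak calls. Whole embryos mix all cell types, so a peak does not say in which cells the tagged protein sat. It also does not say whether the gene beside it was used.

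Proteins that will be secreted or built into membranes enter the endoplasmic reticulum (ER) through the Sec61 translocon, a channel of 3 subunits, and the signal peptidase then trims their leader. COPII-coated vesicles carry cargo out of the ER, and COPI-coated vesicles return proteins from the Golgi and between its layers. Small GTPases of the Arf and Arl families recruit coats and effectors, and Rab GTPases mark each membrane and direct its traffic. The COG complex tethers vesicles at the Golgi, the exocyst tethers them at the plasma membrane, and SNARE proteins fuse the membranes. By these roles the 62 genes were divided into 3 translocon genes, 1 signal peptidase gene, 14 coat genes (7 COPII and 7 COPI), 2 SNARE genes, 13 tether genes (6 exocyst and 7 COG) and 29 small GTPase genes (20 Rab, 3 Arf and 6 Arl). The names sec-13, sec-62 and sec-63 matched no gene in this annotation.

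The peaks come from 4 lists on the ce11 build (WBcel235). The optimal list holds the 714 peaks that passed the authors' test of reproducibility between the replicates, and these are the 714 pooled peaks with the highest signal. The pooled list holds 30000 peaks called on both replicates together, the replicate 1 list 30000 and the replicate 2 list 29397. Those 3 lists hold background as well as peaks, per the authors' own naming. A gene was counted as having a peak when the summit, the base of highest signal, lay within 1000 bp of any of its annotated transcript starts. Signal is the authors' value on a scale they do not state, so peaks are compared by rank within a list, with 1 the highest. A gene's rank in a list is that of its highest peak there, so ranks in different lists can belong to different peaks. At members with an optimal peak, the replicate ranks are those of peaks that overlap it. Read counts are not part of these lists, and the depth behind a peak is therefore unknown.

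The 3 translocon genes all had an optimal peak, and coat and small GTPase genes mostly had weaker ones. Across the 62 members, 8 had an optimal peak near a start (12.9%), against 709 of all 19985 protein-coding genes (3.55%), which include the members. They were sec-61.A, sec-61.B and sec-61.G of the translocon, sec-16A.1 and sec-24.1 of the COPII coat, sec-15 of the exocyst, cogc-2 of the COG complex and rab-11.1. By class these were 3 of 3 translocon genes, 2 of 14 coat genes (14.3%) and 1 of 29 small GTPase genes (3.45%), the last share close to that of all genes. No COPI, SNARE, Arf, Arl or signal peptidase gene had one. When a summit counted only for the gene with the nearest start, 5 of 62 members (8.06%) kept an optimal peak, against 475 of all genes (2.38%). The members lost were sec-61.B, sec-15 and rab-11.1, whose summits lay closer to the start of a neighbour. The lists give no test of a class of genes against the rest, and none was made.

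**Figure D1:**
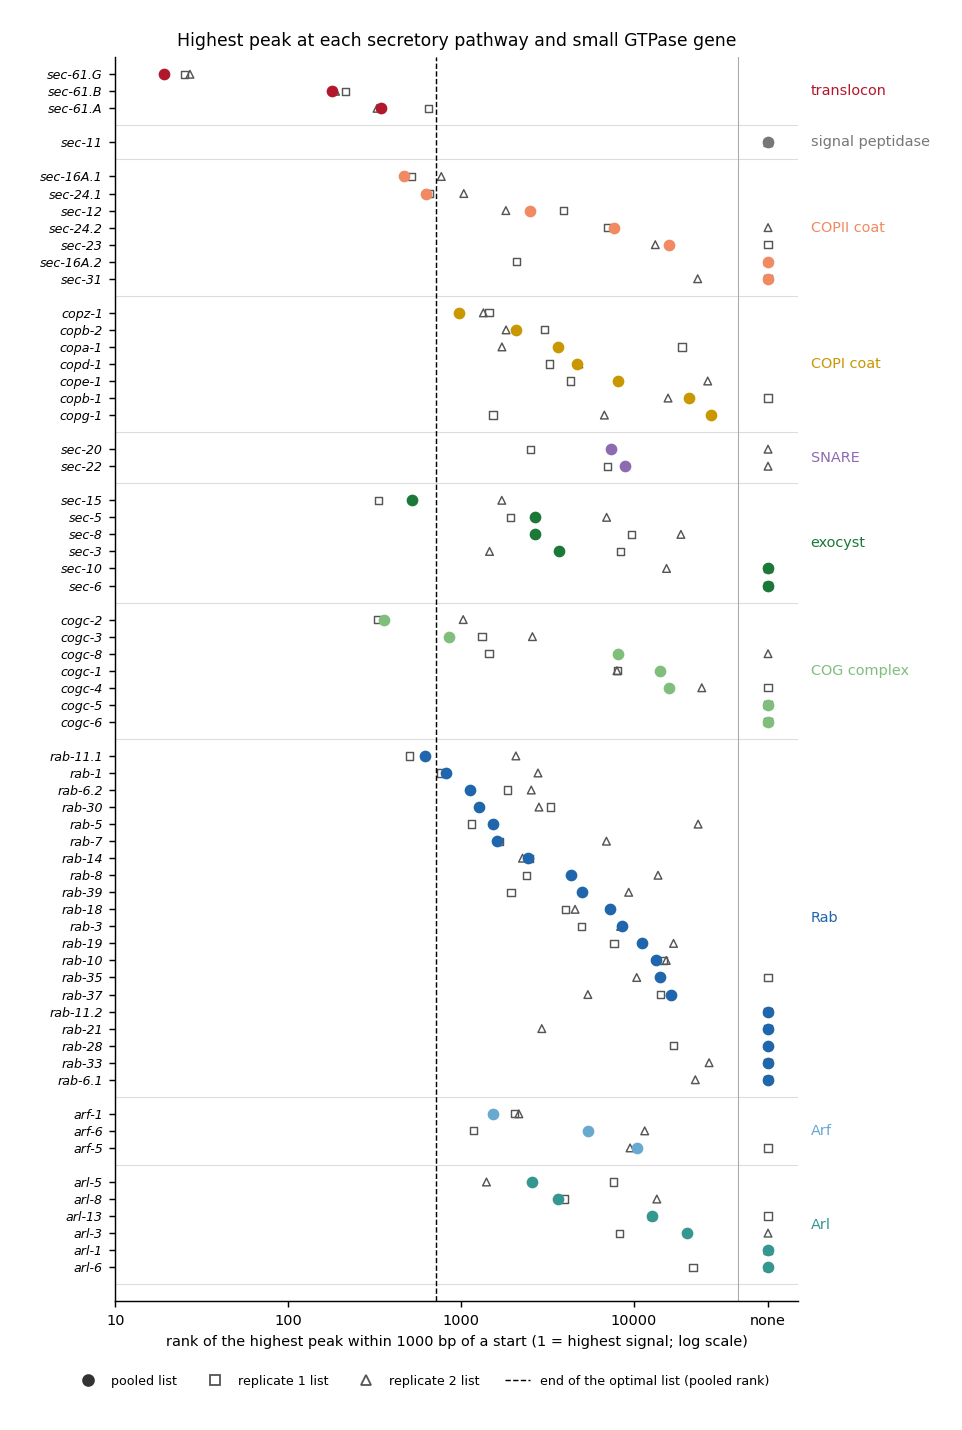
Rank of the highest peak within 1000 bp of a start at each of the 62 members, by class, on a log axis, in the pooled list (filled circles) and the replicate 1 and replicate 2 lists (squares and triangles). Symbols at "none" mark genes with no peak in that list, and the dashed line marks the end of the 714 optimal peaks. The 3 translocon genes lie left of the line in all 3 lists, while COPI, Arf and Arl genes lie right of it.

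The base sequence under 5 of the 8 optimal summits at members is printed here, so that the motifs counted further on can be seen in place. The windows of sec-61.A and sec-15, which lie in annotated UTRs, and of rab-11.1 are not shown, and they hold none of the motifs marked below. The printed windows are joined by copz-1 and rab-1, the coat gene and the small GTPase gene whose peaks came next below the optimal list. Each window holds the summit with 50 bases on either side, is read 5′ to 3′ on the strand of the named gene, and comes from the RefSeq sequence of ce11. Capitals mark matches on either strand to any of 4 motifs, namely AGAGAC and GACGCA and the longer CTGCGTC and TGACGTG. The first 3 were chosen because they recur in these data, so their presence in high peaks is a description. AGAGAC and GACGCA can overlap by 3 bases, and CTGCGTC holds the reverse complement of GACGCA. The motif TGACGTG is the core of the element known in mammals to bind factors of the unfolded protein response.
sec-61.G, chrV:10897310-10897410, minus strand: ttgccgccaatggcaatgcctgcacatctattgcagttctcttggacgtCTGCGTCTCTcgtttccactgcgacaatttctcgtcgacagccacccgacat
sec-61.B, chrIV:2389142-2389242, minus strand: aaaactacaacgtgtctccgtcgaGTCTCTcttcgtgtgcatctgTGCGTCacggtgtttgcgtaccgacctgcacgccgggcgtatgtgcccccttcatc
cogc-2, chrIV:7039626-7039726, minus strand: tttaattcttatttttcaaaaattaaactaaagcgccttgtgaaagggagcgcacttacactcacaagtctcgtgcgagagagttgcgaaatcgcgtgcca
sec-16A.1, chrIII:9126006-9126106, plus strand: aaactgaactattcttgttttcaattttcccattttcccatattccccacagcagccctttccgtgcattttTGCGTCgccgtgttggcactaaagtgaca
sec-24.1, chrIV:11566306-11566406, minus strand: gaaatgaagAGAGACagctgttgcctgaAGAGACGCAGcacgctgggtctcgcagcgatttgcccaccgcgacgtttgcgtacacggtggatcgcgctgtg
copz-1, chrII:10872715-10872815, plus strand: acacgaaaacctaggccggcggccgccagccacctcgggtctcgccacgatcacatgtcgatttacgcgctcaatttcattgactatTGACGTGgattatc
rab-1, chrV:1264454-1264554, minus strand: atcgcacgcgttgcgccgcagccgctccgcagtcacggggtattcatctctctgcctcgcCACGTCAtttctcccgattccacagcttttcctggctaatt

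In these windows the summit is base 51. In the sec-61.G window the overlapping matches run from base 50 to base 59, across the summit. In the sec-61.B window the match to GACGCA ends at base 51, and a match to AGAGAC lies at bases 25 to 30. The sec-24.1 window has an overlapping run at bases 29 to 38 and a further AGAGAC at bases 10 to 15. The sec-16A.1 window has 1 match, to GACGCA, and the cogc-2 window has none. TGACGTG lies at bases 88 to 94 of the copz-1 window and, on the other strand, at bases 61 to 67 of the rab-1 window.

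The Sec61 channel was the class with the highest peaks. The gene sec-61.G encodes the gamma subunit, a small membrane anchor of the channel. Its peak (chrV:10897309-10897417) ranked 19 in the pooled list, with a signal of 193. It ranked 25 in replicate 1 and 27 in replicate 2, a spread of 1.41 ranks (SD, n = 2), with signals of 113 and 78.0. The summits lay 221 and 247 bp upstream of the start, so both replicates placed it within 26 bp. At 109 bp, this peak was narrower than the 344 bp that 694 of the 714 optimal peaks share. The start of F32D8.13, on the same strand, is 817 bp beyond the summit.

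The beta subunit gene sec-61.B shares its optimal peak with another gene of the translocon. The peak (chrIV:2389020-2389363) ranked 180 in the pooled list with a signal of 96.5, 214 in replicate 1 and 188 in replicate 2 (SD 18.4 ranks, n = 2). The summit lay 517 bp upstream of sec-61.B and 253 bp upstream of trap-3, on the opposite strand, and the starts are 770 bp apart. The gene trap-3 encodes a subunit of the translocon-associated protein complex, which sits beside the Sec61 channel. A single intergenic peak thus lies between the starts of both, and the summit also falls inside Y38F2AR.17, an annotated non-coding RNA.

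The alpha subunit gene sec-61.A, which encodes the pore itself, differed from the other translocon genes in where the peak lay. Its peak (chrIV:14824935-14825278) ranked 346 in the pooled list with a signal of 75.7, 648 in replicate 1 and 327 in replicate 2 (SD 227 ranks, n = 2). The summit was 157 bp downstream of the start, in the 5′ UTR, and the replicate summits, 165 and 157 bp downstream, were 8 bp apart. A further, overlapping peak with its summit 56 bp upstream of the start ranked 3165 in the pooled list. It was listed in replicate 1, at rank 1467, and not in replicate 2. The ribosomal protein gene rps-18 starts 415 bp away on the opposite strand, 572 bp from the summit. G+C content of the 101 bp around the summit was 28.7% at sec-61.A, against 57.4% at sec-61.B and 53.5% at sec-61.G.

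**Figure D2:**
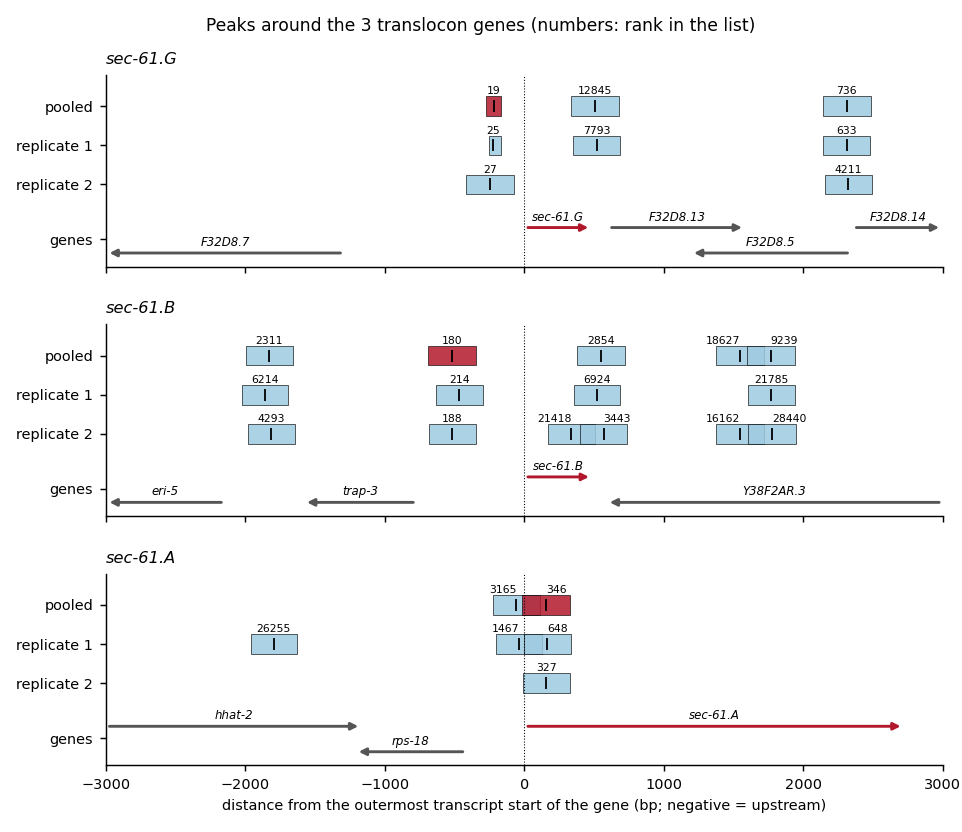
Peaks around the starts of sec-61.G, sec-61.B and sec-61.A, with distance from the outermost start in bp on the x axis and 1 line each for the pooled, replicate 1 and replicate 2 lists. Boxes are peak intervals, ticks are summits, numbers are ranks in the list, red boxes are optimal peaks and arrows are genes. The optimal peak lies upstream of sec-61.G and of sec-61.B, where trap-3 points away from it, and downstream of the start at sec-61.A.

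The signal peptidase gene sec-11, whose product cuts signal peptides, had no peak in any of the 4 lists. Its nearest pooled summit lay 1847 bp upstream of the start and ranked 1121.

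Among the COPII genes, sec-16A.1 and sec-24.1 had optimal peaks, and both stood alone, with no other protein-coding start within 1000 bp. The gene sec-16A.1 encodes a scaffold of ER exit sites. Its peak (chrIII:9125884-9126227) ranked 466 in the pooled list with a signal of 68.8, 520 in replicate 1 and 770 in replicate 2 (SD 177 ranks, n = 2). The summit was 180 bp upstream of the nearest start and inside an intron of a longer transcript of the gene. The gene sec-24.1 encodes a cargo-binding subunit of the inner coat. Its peak (chrIV:11566184-11566527) ranked 628 in the pooled list with a signal of 61.6, 657 in replicate 1 and 1039 in replicate 2 (SD 270 ranks, n = 2). The summit lay 162 bp upstream of the start, with 11 bp between replicates, and inside F12F6.13 and F12F6.14, non-coding RNAs annotated on opposite strands.

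The other COPII genes had lower peaks. The gene sec-12, whose product loads the GTPase Sar1 with GTP, ranked 2526 in the pooled list, 3941 in replicate 1 and 1821 in replicate 2, with the pooled summit 88 bp upstream. The other inner coat genes were lower still, at rank 7719 for sec-24.2 and 16098 for sec-23, and each was missing from 1 replicate. Both pooled summits lay closer to another gene. The sec-24.2 summit was 997 bp upstream of its start but 119 bp downstream of that of ZC518.8. The sec-23 summit was 676 bp upstream of its start but 156 bp downstream of that of dcs-1. In replicate 2 the highest sec-23 peak was a different one, 653 bp downstream. The paralog sec-16A.2 had a peak in replicate 1 alone, at rank 2091. The outer coat gene sec-31 had one in replicate 2 alone, at rank 23486. COPII genes therefore spanned the range from the optimal list to no pooled peak.

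All 7 COPI genes had a pooled peak, against 52.6% of all protein-coding genes. None of the 7 peaks was optimal, where the share over all genes was 3.55%. The highest was at copz-1, which encodes the zeta subunit, with pooled rank 978, rank 1456 in replicate 1 and rank 1349 in replicate 2. Its summit lay 114 bp upstream of copz-1 and 154 bp upstream of cyn-4. Next came the beta-prime gene copb-2 at pooled rank 2084, with 3061 in replicate 1 and 1826 in replicate 2. The alpha gene copa-1 ranked 3669 in the pooled list, and its replicates stood far apart, at 19034 in replicate 1 and 1728 in replicate 2. The pooled summit there lay 416 bp upstream of copa-1 but 49 bp upstream of gst-43. The delta gene copd-1 ranked 4699, the epsilon gene cope-1 ranked 8077 and the beta gene copb-1 ranked 20903. The gamma gene copg-1 was last at pooled rank 28124, although its highest peak ranked 1532 in replicate 1 and 6770 in replicate 2. The median of the highest pooled rank was 4699 for COPI and 7719 for COPII genes, with genes without a peak placed after the end of the list. The classes thus overlapped over most of their range.

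The small GTPase genes contributed 1 optimal peak, at rab-11.1, which encodes the Rab of recycling endosomes. This peak (chrI:110614-110957) ranked 617 in the pooled list with a signal of 61.9, 506 in replicate 1 and 2081 in replicate 2 (SD 1114 ranks, n = 2). Its summit lay 729 bp upstream of rab-11.1 but 252 bp upstream of rpl-7, a ribosomal protein gene on the opposite strand. It was the member with an optimal peak whose replicates differed most in rank. The non-coding RNA F53G12.16 ends 15 bp from the summit.

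Other Rab genes followed below the end of the optimal list. The gene rab-1, whose product acts between ER and Golgi, had a pooled rank of 824 and a signal of 55.3, just under the 58.3 of the lowest optimal peak. It ranked 759 in replicate 1 and 2794 in replicate 2, with the pooled summit 515 bp upstream of rab-1 and 269 bp upstream of C39F7.5. The Golgi Rab gene rab-6.2 ranked 1125 in the pooled list, 1858 in replicate 1 and 2554 in replicate 2, and rab-30 ranked 1268 in the pooled list. The early endosome gene rab-5 ranked 1542 in the pooled list, with 1155 in replicate 1 and 23619 in replicate 2. The late endosome gene rab-7 ranked 1609, with 1668 in replicate 1 and 6958 in replicate 2. Both rab-5 and rab-7 were thus much higher in replicate 1. Rab genes had pooled peaks in 15 of 20 cases (75%), against 52.6% of all genes. The 5 without one were rab-6.1, rab-11.2, rab-21, rab-28 and rab-33, and all but rab-11.2 had a peak in 1 replicate list. The synaptic vesicle gene rab-3 had the most pooled peaks near its starts, 6, the highest at rank 8612.

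Arf genes had pooled peaks in 3 of 3 cases and Arl genes in 4 of 6 (66.7%), against 52.6% of all genes. The leading Arf gene was arf-1, whose product recruits the COPI coat. It ranked 1540 in the pooled list, 2035 in replicate 1 and 2166 in replicate 2. The plasma membrane gene arf-6 ranked 5438 in the pooled list and arf-5 ranked 10476. Among Arl genes, arl-5 ranked 2585 in the pooled list, 7652 in replicate 1 and 1406 in replicate 2, and the lysosomal gene arl-8 ranked 3651 in the pooled list. The genes arl-3, arl-6 and arl-13, known for their roles in cilia, were low or absent. They ranked 20264 at arl-3 and 12800 at arl-13, while arl-6 had a peak in replicate 1 alone at rank 22087. The Golgi gene arl-1 had no peak in any list.

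Of the tethers, 1 COG gene and 1 exocyst gene had an optimal peak. The COG gene cogc-2 (chrIV:7039504-7039847) ranked 361 in the pooled list with a signal of 74.8, 328 in replicate 1 and 1031 in replicate 2 (SD 497 ranks, n = 2). Its summit lay 96 bp upstream of cogc-2 and 535 bp upstream of klp-18, which encodes a kinesin and faces the other way. Its partner cogc-3 ranked 857 in the pooled list, 1325 in replicate 1 and 2595 in replicate 2. The summit there (chrI:2935784) was 161 bp downstream of the nearest start, an internal one, as the gene begins at chrI:2931461. It lay in an intron, 1 bp from the snoRNA gene Y71F9AM.7. The other COG genes were far lower, with cogc-8 at pooled rank 8134, cogc-1 at 14147 and cogc-4 at 16091. No list had a peak at cogc-5 or cogc-6.

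The exocyst gene sec-15 (chrX:8836003-8836346) ranked 524 in the pooled list with a signal of 65.3, 333 in replicate 1 and 1725 in replicate 2 (SD 984 ranks, n = 2). Its summit lay 460 bp upstream of sec-15, but 159 bp downstream of the start of C28G1.2 and inside a tRNA gene. Its replicate summits were 137 bp apart, the widest gap of the 8, against a median of 34 bp for the 466 optimal peaks near a start that both replicate lists hold. The other exocyst genes with a pooled peak were sec-5 at rank 2682, sec-8 at 2689 and sec-3 at 3679. The gene sec-10 had a peak in replicate 2 alone, at rank 15507, and sec-6 had none in any list. The SNARE genes sec-20 and sec-22 had pooled peaks at ranks 7382 and 8864. Each had a peak in replicate 1 and none in replicate 2.

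The pooled list as a whole reached 48 of 62 members (77.4%), against 52.6% of all protein-coding genes. It reached 3 of 3 translocon genes, 12 of 14 coat genes (85.7%) and 22 of 29 small GTPase genes (75.9%). Replicate 1 had a peak at 45 members (72.6%), against 52.2% of all genes. Replicate 2 had one at 48 members (77.4%), against 53.5% of all genes. Both replicates had one at 37 members (59.7%), against 35.9% of all genes. Both replicates had a peak at 9 of 14 coat genes (64.3%) and 18 of 29 small GTPase genes (62.1%). A gene counts here when each replicate list has any peak near it, and these peaks need not overlap. The only arf-6 summit lay 187 bp upstream of the start in replicate 1 and 898 bp downstream in replicate 2. No list had a peak at 6 members (9.68%), against 28.1% of all genes. These were sec-11, sec-6, cogc-5, cogc-6, rab-11.2 and arl-1.

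Reading down the pooled list, the share of members stayed above that of all genes at each step. Within the first 1500 pooled peaks there were 13 members (21%), against 6.94% of all genes. Within the first 3000 there were 22 (35.5%), against 11.9%, and these included 5 of 14 coat genes (35.7%) and 9 of 29 small GTPase genes (31%). Within the first 6000 there were 29 (46.8%), against 19% of all genes, and within the first 12000 there were 38 (61.3%), against 29.8%. The median highest pooled rank was 180 for translocon genes, 6209 for coat genes, 8612 for small GTPase genes and 7550.5 for all members, against 27542 for all genes. Below the optimal list the coat and small GTPase genes ran close together, both above the curve of all genes.

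**Figure D3:**
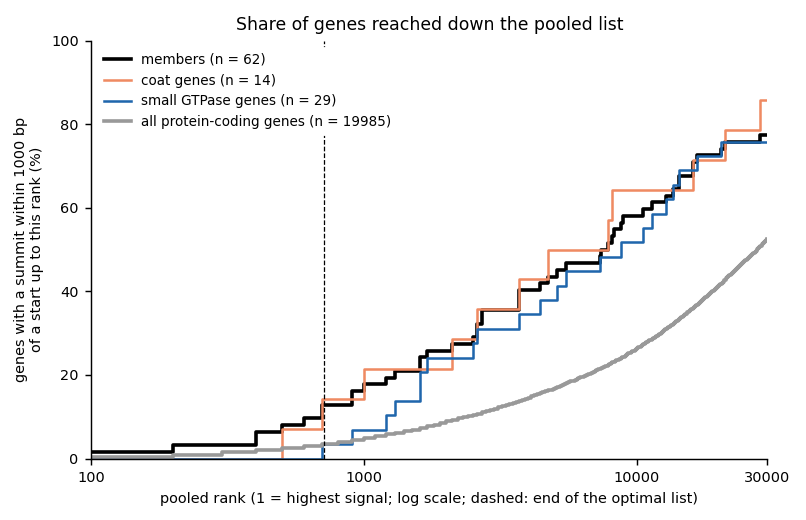
Share of genes with a summit within 1000 bp of a start, in percent, against pooled rank on a log axis, for the 62 members, the 14 coat genes, the 29 small GTPase genes and all 19985 protein-coding genes. The dashed line marks the end of the 714 optimal peaks. At rank 3000 the members stand at 35.5% and all genes at 11.9%.

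The replicates differed in how high they placed the members. Among the 714 highest peaks of replicate 1 there were 8 members, the same 8 genes as in the optimal list, against 3.45% of all genes. Among the 714 highest of replicate 2 there were 3 members (4.84%), the 3 translocon genes, against 3.35% of all genes. No coat and no small GTPase gene was among those of replicate 2. At a depth of 3000 peaks the replicates were closer, with 24 members (38.7%) in replicate 1, against 11.8% of all genes, and 21 members (33.9%) in replicate 2, against 10.3% of all genes. Of the 8 members with an optimal peak, 6 ranked higher in replicate 1, and sec-61.A and sec-61.B ranked higher in replicate 2.

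The side and distance of the summit are given here by class. The highest pooled peak lay upstream of the start at 38 of 48 members (79.2%), against 6911 of 10503 genes with a pooled peak (65.8%). It was upstream at 11 of 12 coat genes (91.7%) and at 19 of 22 small GTPase genes (86.4%), but at 1 of 5 COG genes. The median distance to the start was 203 bp at coat genes and 528 bp at small GTPase genes, against 378 bp at all genes. The start of the gene itself was the nearest one at 32 of 48 members (66.7%), with 9 of 12 coat genes (75%) and 13 of 22 small GTPase genes (59.1%), against 8875 of 10503 genes with a pooled peak (84.5%). The difference between the classes was not tested. Just inside the limit of 1000 bp lay the summits of sec-24.2 at 997 bp and rab-14 at 994 bp. Of the members with no pooled summit inside it, the nearest were rab-21 at 1015 bp and rab-33 at 1050 bp. In the optimal list the nearest outside were rab-10 at 1125 bp upstream, with rank 405, rab-33 at 1568 bp, with rank 402, and rab-19 at 1900 bp, with rank 537.

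**Figure D4:**
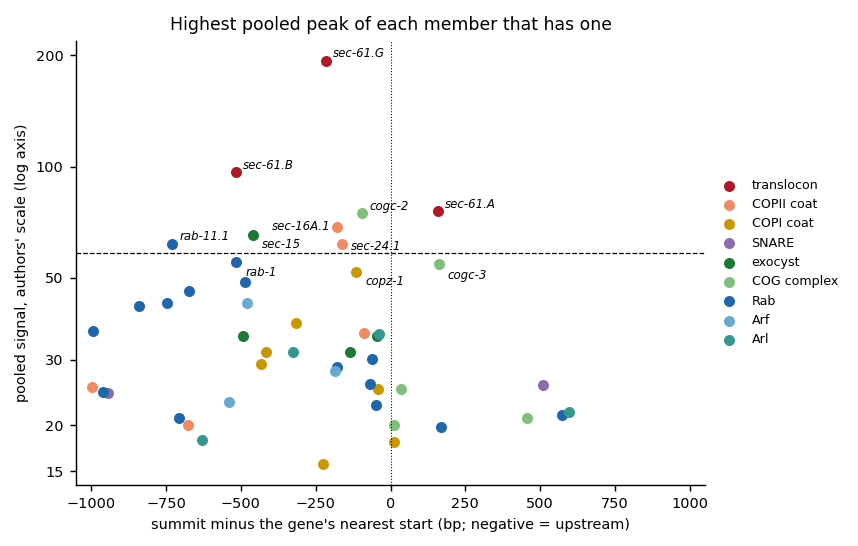
Position of the highest pooled peak of each of the 48 members that has one, as summit minus nearest start in bp (x axis, negative upstream), against its pooled signal on the authors' scale (y axis, log). Colours give the class, and the dashed line marks the lowest optimal signal of 58.3. Of the 48 points, 38 lie upstream of the start.

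Neighbouring starts bear on which gene an optimal peak belongs to. At 6 of the 8 optimal member peaks another protein-coding start lay within 1000 bp, against 224 of all 490 optimal peaks near a start (45.7%) and 15% of the pooled peaks near a start below the optimal list. At 5 of those 6 the neighbour was on the opposite strand, and at sec-61.A and rab-11.1 it was a ribosomal protein gene. Non-coding genes also lay under these peaks. An annotated non-coding gene overlapped 4 of the 8 optimal member peaks (50%), against 89 of the 490 optimal peaks near a start (18.2%), and the summit was inside it at sec-61.B, sec-15 and sec-24.1. Of the members' highest peaks below the optimal list, 4 of 40 overlapped one (10%). Whether the signal belongs to the member, its neighbour or the non-coding gene was not tested.

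The sequence of the members' summit windows was searched for 8 motifs, on both strands. AGAGAC or GACGCA was in 4 of 8 summit windows of optimal member peaks (50%), against 147 of 474 windows of optimal peaks near a start (31%). In the members' highest peaks below the optimal list it was in 3 of 40 windows (7.5%), against 834 of 13111 windows of lower pooled peaks near a start (6.36%). CTGCGTC was in 2 of 8 member windows (25%), against 13.1% of optimal windows near a start. None of the 8 held GCGCGC (11.8% of optimal windows near a start), the E-box CACGTG (2.11%), the element core TGACGTG (1.69%) or the GATA site GATAA (16%). Among the 40 lower member windows, CACGTG was in 4 (10%), at sec-12, copa-1, copb-1 and sec-20, against 1.43% of lower windows near a start. The copb-1 and sec-20 summits lay in coding exons, and each of those genes had no peak in 1 replicate list. The copa-1 summit lay closer to the start of gst-43. The core TGACGTG was in 2 of the 40 (5%), at copz-1 and rab-1, against 0.732%. The NF-Y box CCAAT was in 1 of 8 (12.5%), against 13.3% of optimal windows near a start. Median G+C content was 44.1% in the 8 member windows, against 45.5% in optimal windows near a start, and 33.7% in the 40 lower member windows, against 31.7% in lower windows near a start.

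Promoters were taken as 250 bp before to 50 bp after the outermost start, at all 62 members. AGAGAC or GACGCA was in 11 of 62 member promoters (17.7%), against 20% of 19973 protein-coding promoters. Among the 8 members with an optimal peak, it was in 5 promoters (62.5%). These motifs were chosen because they recur in these data, so that share is a description. At sec-61.A and sec-15 the promoter had a match but the summit window had none. At sec-61.B the summit, 517 bp upstream, lay outside the promoter. AGAGAC or GACGCA was in 3 of 3 translocon promoters, 2 of 14 coat promoters (14.3%) and 4 of 29 small GTPase promoters (13.8%). GACGCA itself was in none of the small GTPase promoters, against 8.78% of all promoters. TGACGTG was in 3 of 14 coat promoters (21.4%), those of sec-31, cope-1 and copz-1, in none of the small GTPase promoters and in 4 of 62 member promoters (6.45%), against 2.93% of all promoters. CACGTG was in 5 of 62 member promoters (8.06%), against 5.82%. CCAAT was in 45.2% and GATAA in 53.2% of member promoters, against 45.5% and 57.6% of all promoters. CTGCGTC was in 6.45%, against 4.34%, and GCGCGC in 1.61%, against 3.58%.

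Other genes of the pathway, named by function and not part of the family above, numbered 79. Optimal peaks were found at 6 of them (7.59%), against 3.55% of all genes, and pooled peaks at 56 (70.9%), against 52.6%. When a summit counted only for the nearest start, 4 (5.06%) kept an optimal peak, against 2.38% of all genes. The summits of dad-1 and syx-5 lay closer to the starts of tre-1 and F55A11.1. The peak of trap-3 is the one it shares with sec-61.B. The translocon-associated genes were all among the higher ranks of the pooled list, with trap-3 at rank 180, trap-1 at 564, trap-4 at 1388 and trap-2 at 2012. In the replicates trap-2 stood far apart, at rank 1162 in replicate 1 and 19420 in replicate 2. The pooled trap-4 summit lay 227 bp upstream, but its highest replicate summits lay 951 and 810 bp downstream. The other 4 with optimal peaks, beside trap-1 and trap-3, were the SNARE gene syx-5 at rank 459, nsf-1, whose product takes SNARE complexes apart, at 565, the signal peptidase subunit gene spcs-2 at 644 and dad-1 of the oligosaccharyltransferase at 694. Several of these ranked higher in replicate 2, whereas the 5 members with an optimal peak outside the translocon all ranked higher in replicate 1. The gene syx-5 ranked 2098 in replicate 1 and 99 in replicate 2. The gene trap-1 ranked 1247 in replicate 1 and 337 in replicate 2, and spcs-2 ranked 1114 in replicate 1 and 400 in replicate 2. Of the 79 genes, 2 were among the 714 highest peaks of replicate 1 (2.53%), against 3.45% of all genes, and 8 among those of replicate 2 (10.1%), against 3.35% of all genes.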

How the data were processed

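ChIP-seq peak lists of 2 biological replicates were used, which the labels number 1 and 2 without saying how the cultures were kept apart. Per the listing that accompanies the deposited files, the authors made the replicate and pooled lists from alignments and a control alignment, and derived the optimal list from them by the irreproducible discovery rate procedure. The sources used here do not give the aligner, peak caller or threshold. The signal of each peak is the authors' deposited value, on an unstated scale, and served only to rank peaks within a list. Read depth is unknown, so counting error could not be given.

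Lists on ce11 were used with gene models of Ensembl 115 and the matching genome sequence, and ce10 lists were not used. Summits were assigned to every protein-coding gene with a transcript start within 1000 bp. Motifs were searched in 101 bp around each summit, mitochondrial summits left out, and in 300 bp promoters. Counts of members are given beside the same count over all 19985 protein-coding genes, with no test of sets. The number of columns of per-sample values with no sample was 0. Python 3.11.15, numpy 2.4.6 and matplotlib 3.10.9 were used, and the assignment was tested on simulated data. Alternatives covered distance, nearest start, outermost start, peak intervals, a stricter list and each replicate alone.

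The members, classes, motifs and other pathway genes were chosen with earlier results of these data known. Named by rule were members with an optimal peak, the highest member of each class without one, the 3 members next below the optimal list, and members in no list. All other names, and the copz-1 and rab-1 sequences, were chosen after their values were seen, to account for each class.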

Additional observations from a re-analysis of the deposited data

How the results depend on the processing

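No paired analysis was possible because the 2 replicates form 1 group. Of 54 counts under alternatives, 42 were within 1.5 times the reported count. The translocon count was 2 or 3 of 3 under each alternative, and both pooled counts were within that range throughout. For the optimal list, the count of members was 5 (8.06%) with the nearest start only and 3 (4.84%) with the 357 highest optimal peaks. With 1 replicate alone it ran from 3 to 8. The coat count was 0 with the 357 highest peaks, and from 0 to 2 with 1 replicate. The small GTPase count was 0 within 500 bp, with the nearest start only and with the 357 highest peaks. It was 4 (13.8%) within 2000 bp, where rab-10, rab-19 and rab-33 were added, 2 (6.9%) by peak interval, and from 0 to 1 with 1 replicate. Over all genes, the share was 3.55% as reported, 2.79% within 500 bp, 4.98% within 2000 bp and 2.38% with the nearest start only. It was 3.83% by peak interval, 3.45% with replicate 1 alone and 3.35% with replicate 2 alone. The 357 highest peaks gave 348 of all genes (1.74%). Where a range is given for 1 replicate, its lower end comes from replicate 2 alone. A stricter list holds fewer peaks by construction. The cause of the other changes was not tested. Of 49 ranks of members with an optimal peak, recomputed where an alternative left the peak, 37 were equal to the reported rank and 3 differed by over 1.5 times. They included 648 for sec-61.A and 333 for sec-15 in replicate 1 alone, against 346 and 524 as reported. The other was 367 for rab-11.1 within 2000 bp, where a higher peak came within reach, against 617. The equal ranks all come from settings that keep the pooled list, where a peak's rank is fixed, so they do not show stability. The 49 leave out the replicate 2 ranks of members outside the translocon, which lay beyond the depth of the optimal list. Those were 1031 for cogc-2, 770 for sec-16A.1, 1725 for sec-15, 2081 for rab-11.1 and 1039 for sec-24.1. The reported ranks were 361, 466, 524, 617 and 628, so each differed by over 1.5 times. The unknown depth limits any statement that a gene lacks a peak, and in small classes 1 gene moves a share far, as for the translocon at 66.7% within 500 bp, against 100% as reported.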
